A study of Mus musculus with 11 samples.

Results

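The 10 genes described here mark the endothelium of the lung, the cell layer that lines its blood vessels. They were taken from a given list and matched to the Ensembl IDs of the deposited table by gene symbol, and all 10 were found among its 23255 genes. In 6 of them, Tie1, Tek, Kdr, Flt1, Cdh5 and Pecam1, expression is general to endothelium. A further 3, Car4, Ednrb and Plvap, mark capillaries, and 1, Vwf, marks larger vessels. RNA from lung tissue of C57BL/6 mice was sequenced in 11 libraries. Mice of the osimertinib group (5 libraries) received naphthalene, which damages airway club cells, and then osimertinib, a drug that blocks the EGF receptor. Mice of the naphthalene group (3 libraries) received naphthalene, and the 3 control libraries came from untreated animals. Both treated groups therefore received naphthalene, and no group given osimertinib without naphthalene was analysed here. No dose, time, age or sex is given in the labels, nor whether replicates are separate animals, so the p-values rest on a spread between libraries that may be technical.

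Endothelial cells receive growth signals through receptor tyrosine kinases. Kdr (VEGF receptor 2) and Flt1 (VEGF receptor 1) bind vascular endothelial growth factors, and Tek (Tie2) binds angiopoietins with Tie1, a related receptor without a well established ligand of its own, as its partner. Cdh5 (VE-cadherin) and Pecam1 (CD31) hold neighbouring cells together at their junctions. The capillary bed of the mouse lung is a mosaic of aerocytes, thin cells specialised for gas exchange that carry Car4 and Ednrb, and of general capillary cells, which carry Plvap.

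Regulatory sequence is shown for 3 of the genes, Tie1 and Kdr, which had the smallest p-values of the 10, and Car4, which lay on the other side of control. ETS factors such as Ets1, Erg and Fli1 are known to drive endothelial promoters, so 2 hexamers with the ETS core, CAGGAA and CCGGAA, were sought on both strands in the 250 bases before and 50 bases after each transcription start given by RefSeq (build GRCm38.p6). Promoters of 6 of the 10 genes were in that table. CAGGAA occurred in 30.4% of 27025 gene promoters, CCGGAA in 15.2% and either in 41.4%. Tie1 had 1 match to CAGGAA, Tek 2 to CAGGAA, Kdr 1 to CCGGAA and Car4 2 to CCGGAA, which overlap on opposite strands, and Flt1 and Ednrb had none. These matches are descriptions of letters and not of bound sites. The 250 bases before the start are printed 5′ to 3′ on the strand of the gene, at chr4:118489850-118490099 (minus strand) for Tie1, chr5:75978456-75978705 (minus strand) for Kdr and chr11:84957504-84957753 (plus strand) for Car4, with the hexamers in capitals (on the other strand CAGGAA reads TTCCTG and CCGGAA reads TTCCGG).
Tie1: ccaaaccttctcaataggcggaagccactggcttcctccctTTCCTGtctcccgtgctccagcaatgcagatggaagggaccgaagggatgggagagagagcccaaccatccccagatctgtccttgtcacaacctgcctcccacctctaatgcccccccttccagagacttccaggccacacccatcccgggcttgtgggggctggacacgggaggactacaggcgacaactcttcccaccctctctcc
Kdr: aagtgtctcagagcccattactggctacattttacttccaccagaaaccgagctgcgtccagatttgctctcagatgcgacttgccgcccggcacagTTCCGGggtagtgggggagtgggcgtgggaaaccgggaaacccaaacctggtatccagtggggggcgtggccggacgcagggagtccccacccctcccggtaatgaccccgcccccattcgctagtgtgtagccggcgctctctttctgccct
Car4: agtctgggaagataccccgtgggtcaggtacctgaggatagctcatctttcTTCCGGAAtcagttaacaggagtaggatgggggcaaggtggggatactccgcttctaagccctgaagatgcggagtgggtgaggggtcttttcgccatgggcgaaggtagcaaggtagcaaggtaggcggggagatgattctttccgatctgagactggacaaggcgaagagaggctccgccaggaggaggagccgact

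Gene reads recovered from the deposited values numbered 5045361 to 13009975 per library. In 4 libraries, naphthalene 1 to 3 and osimertinib 2, the gene ENSMUSG00000119584 took 43.9 to 60.3% of these reads, against at most 0.0337% in the other 7. The annotation used here held no name for that gene, and what it encodes was not examined. Outside that gene the 4 libraries held 2018541 to 2965328 reads, and the other 7 held 8418669 to 13006929. Each naphthalene library was of the first kind and each control library of the second, so this difference and the treatment cannot be told apart within these 2 groups. Osimertinib 3 stood apart from the rest on the first principal component, with a score of −72.7 (38.4% of the variance), followed by naphthalene 3 at −26.2. A second gene took 16.7% of gene reads in osimertinib 3 and 4.55% in naphthalene 3, against 0.836 to 4.38% in the other libraries. The part of this second gene in the endothelial values was not tested. Every endothelial gene rested on at least 121 reads in every library. In RNA from a tissue of many cell types, fewer cells of a type and less RNA per cell cannot be told apart.

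The values below are CPM, the count of reads for a gene divided by a library size that was scaled by the trimmed mean of M-values (TMM CPM). None of the 10 endothelial genes passed the test in any of the 3 comparisons (limma with Benjamini-Hochberg adjustment over 16225 genes, threshold 0.05). The same test called 0% of all genes in naphthalene against control, 0% in osimertinib against naphthalene, and 0.00616% as higher and 0% as lower in osimertinib against control. By edgeR's quasi-likelihood test and by DESeq2 on the recovered reads, 0 of the 10 were also called, beside 0% and 0.074% of all genes in naphthalene against control, 0% and 0.203% in osimertinib against naphthalene, and 0.00616% and 0.481% in osimertinib against control. At an unadjusted p under 0.05, 2 of the 10 (Tie1 and Kdr) were lower and 0 higher in naphthalene than in control, beside 5.74% lower and 1.73% higher of all genes. In osimertinib against naphthalene 1 of the 10 (Tie1) was higher and 0 lower, beside 7.08% and 3.22%. In osimertinib against control 1 (Kdr) was lower and 0 higher, beside 2.5% and 2.31%.

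In naphthalene lungs 9 of the 10 genes lay below control, with a median log2 difference of −0.21, where 62% of all genes lay below control and their median was −0.06. For 5 of the 10 (Tie1, Tek, Kdr, Ednrb and Plvap) each naphthalene library was below each control library, and this held for 11.2% of all genes. None had the naphthalene libraries all above control, as 4.94% of all genes had. In osimertinib against naphthalene 3 of the 10 lay below 0 (39.5% of all genes did), the median was 0.04 beside 0.06 for all genes, and none of the 10 had groups that did not overlap (3.82% of all genes were apart and higher, 2.12% apart and lower). In osimertinib against control 9 of the 10 lay below 0, against 52% of all genes, with a median of −0.20 beside −0.01. Here 2 of the 10, Tie1 and Kdr, had every osimertinib library below every control library, which 3.43% of all genes showed, and none had the reverse, which 2.91% showed. The comparisons share libraries, so their values are given side by side and are not separate lines of evidence.

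**Figure D1:**
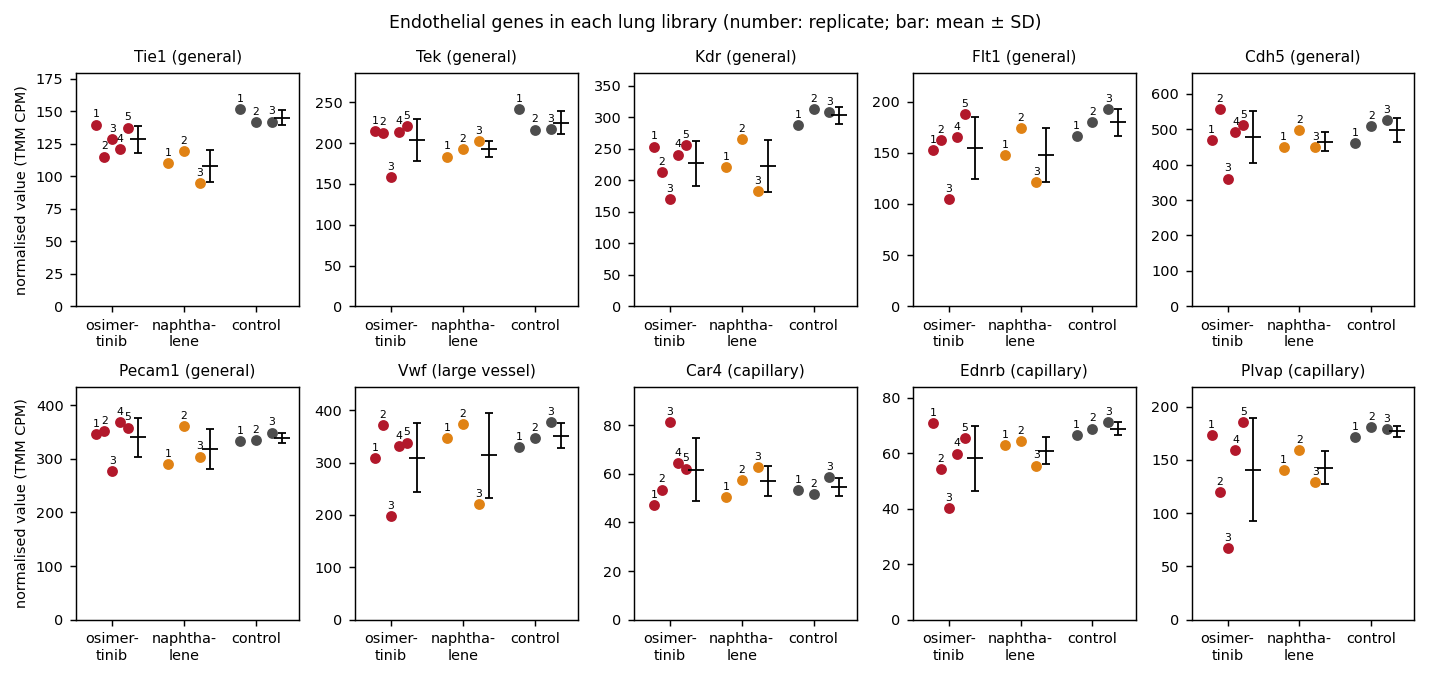
Normalised value (TMM CPM, linear axis from 0) of each endothelial gene in the 5 osimertinib, 3 naphthalene and 3 control libraries, with points numbered by replicate and bars at mean ± SD. Control points lie close together, Tie1 and Kdr have all osimertinib and all naphthalene points below control, and osimertinib 3 is the lowest point of 8 genes and the highest of Car4.

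The gene order by level was read per kilobase of exon (GENCODE M21 exon union), which assumes that all exons of a gene are in its transcripts. In control lungs Cdh5 was highest with 118 ± 7.91 TMM CPM per kilobase (SD, n = 3), followed by Plvap with 89.0 ± 2.51, Pecam1 with 54.4 ± 1.39, Tek with 47.8 ± 3.09 and Kdr with 33.6 ± 1.49. Below them came Tie1 with 29.5 ± 1.19, Car4 with 27.8 ± 1.88, Vwf with 21.9 ± 1.49, Ednrb with 16.2 ± 0.539 and Flt1 with 13.3 ± 0.997. Neighbours in this order had control values that did not overlap, except Tie1 (28.8 to 30.9) and Car4 (26.3 to 29.9). The order in osimertinib lungs was the same for Cdh5, Plvap, Pecam1 and Tek and for Vwf, Ednrb and Flt1, and there Car4, at 31.4 ± 6.58 per kilobase (SD, n = 5), stood above Tie1 at 26.1 ± 2.15 and Kdr at 25.1 ± 3.99. In naphthalene lungs Car4, at 28.9 ± 3.15 per kilobase (SD, n = 3), likewise stood above Kdr at 24.7 ± 4.56 and Tie1 at 22.01 ± 2.51. Each pair of neighbours in the osimertinib order overlapped in range. Those ranges include the spread between libraries, so they alone do not settle the order, and the order within each library was not compared.

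Of the angiopoietin receptor system, Tie1 (ENSMUSG00000033191) had 139.7, 115, 129, 121 and 137 TMM CPM in osimertinib 1 to 5, 110.2, 119 and 94.996 in naphthalene 1 to 3, and 152, 141 and 142 in control 1 to 3. All treated libraries lay below the lowest control library, and the osimertinib and naphthalene libraries overlapped. In naphthalene against control the log2 difference was −0.43 (SE 0.11, limma adjusted p = 0.466), a fold of 0.744 with an unadjusted p of 0.00215, and 0.419% of all genes had a smaller p. In osimertinib against naphthalene it was 0.25 (SE 0.10, adjusted p = 0.408), and in osimertinib against control −0.18 (SE 0.10, adjusted p = 0.999). With a term in the fit for a high share of ENSMUSG00000119584, which rests on osimertinib 2 against the other osimertinib libraries, Tie1 stood at −0.24 (SE 0.18) in naphthalene against control and at 0.095 (SE 0.15) in osimertinib against naphthalene, with unadjusted limma p of 0.213 and 0.536. Without naphthalene 3 the difference between osimertinib and naphthalene was 0.16.

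Tek (ENSMUSG00000006386), the angiopoietin receptor itself, had 215, 213, 158, 214 and 221 TMM CPM in osimertinib 1 to 5, 183, 193 and 202 in naphthalene 1 to 3, and 242, 217 and 217 in control 1 to 3. The naphthalene libraries lay below the control libraries without overlap, and among the osimertinib libraries replicate 3 was low while the other 4 sat between 213 and 221. The log2 differences were −0.22 (SE 0.13) in naphthalene against control, 0.07 (SE 0.11) in osimertinib against naphthalene and −0.15 (SE 0.11) in osimertinib against control, with adjusted p of 0.752, 0.863 and 0.999 by limma. Without osimertinib 3 Tek stood at 0.16 against naphthalene and at −0.061 against control. Tek and Tie1 differ in the library that is lowest, osimertinib 3 for Tek and naphthalene 3 for Tie1.

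Of the VEGF receptors, Kdr (ENSMUSG00000062960), which carries most of the growth signal of VEGF-A, had 253, 213, 169.9, 241 and 256 TMM CPM in osimertinib 1 to 5, 221, 265 and 183 in naphthalene 1 to 3, and 288, 313 and 308 in control 1 to 3. All 8 treated libraries lay below all 3 control libraries. The log2 difference from control was −0.46 (SE 0.17, adjusted p = 0.611) in naphthalene and −0.43 (SE 0.15, adjusted p = 0.767) in osimertinib lungs, folds of 0.729 and 0.741 with unadjusted p of 0.0187 and 0.0137. Between osimertinib and naphthalene the difference was 0.02 (SE 0.15, adjusted p = 0.972). Leaving out 1 library in turn kept Kdr between −0.48 and −0.33 in osimertinib against control, and between −0.59 and −0.32 in naphthalene against control.

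Flt1 (ENSMUSG00000029648), which binds VEGF-A tightly and signals less than Kdr, had 153, 162, 105, 165 and 188 TMM CPM in osimertinib 1 to 5, 148, 174 and 121 in naphthalene 1 to 3, and 166, 179.9 and 193 in control 1 to 3. The groups overlapped in every comparison, and the lowest values were those of osimertinib 3 and naphthalene 3. The log2 differences were −0.29 (SE 0.19) for naphthalene against control, 0.05 (SE 0.17) for osimertinib against naphthalene and −0.24 (SE 0.17) for osimertinib against control, with adjusted p of 0.795, 0.935 and 0.999 by limma. The first was −0.16 without naphthalene 3, and the last −0.11 without osimertinib 3.

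Of the junction genes, Cdh5 (ENSMUSG00000031871), the cadherin of endothelial adherens junctions, had 469, 558, 360.5, 492.7 and 512 TMM CPM in osimertinib 1 to 5, 448, 497 and 449.7 in naphthalene 1 to 3, and 461, 508 and 525 in control 1 to 3. Pecam1 (ENSMUSG00000020717), an adhesion molecule of the immunoglobulin family that endothelial cells and some blood cells carry, had 346, 351, 276, 368 and 358 in osimertinib 1 to 5, 291, 361 and 304 in naphthalene 1 to 3, and 334, 334 and 349 in control 1 to 3. For both genes the groups overlapped in every comparison, and osimertinib 3 was the lowest of the 11 libraries. The log2 differences of Cdh5 were −0.10 (SE 0.15) in naphthalene against control, 0.03 (SE 0.14) in osimertinib against naphthalene and −0.07 (SE 0.14) in osimertinib against control. Those of Pecam1 were −0.10 (SE 0.13), 0.09 (SE 0.11) and −0.0029 (SE 0.11) in the same comparisons. All 6 had adjusted p of at least 0.823 by limma, and the 95% interval of Pecam1 in osimertinib against control ran from −0.25 to 0.25. Without osimertinib 3, Cdh5 stood at 0.027 and Pecam1 at 0.070 against control. With the term for ENSMUSG00000119584, Cdh5 stood at −0.39 (SE 0.24) in naphthalene against control, with an unadjusted limma p of 0.135.

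Vwf (ENSMUSG00000001930), the blood protein that captures platelets and that endothelium of larger vessels stores, had 308, 372, 198, 332 and 338 TMM CPM in osimertinib 1 to 5, 346, 373 and 221 in naphthalene 1 to 3, and 329.7, 347 and 377 in control 1 to 3. Osimertinib 3 and naphthalene 3 were the low libraries, and the others lay in or near the control range. The log2 differences were −0.20 (SE 0.23) in naphthalene against control, −0.01 (SE 0.21) in osimertinib against naphthalene and −0.21 (SE 0.21) in osimertinib against control, with adjusted p of at least 0.920 by limma. The first of these was 0.035 without naphthalene 3, and the last −0.059 without osimertinib 3. Megakaryocytes make Vwf too, and the summed level of 7 megakaryocyte and platelet markers was 19.1 to 31.7 in osimertinib, 13.8 to 22.5 in naphthalene and 16.9 to 40.0 in control libraries; their part in Vwf was not tested.

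The capillary genes did not lie on 1 side of control. Car4 (ENSMUSG00000000805), a carbonic anhydrase on the surface of aerocytes, had 47.2, 53.5, 81.3, 64.4 and 62.1 TMM CPM in osimertinib 1 to 5, 50.5, 57.4 and 62.9 in naphthalene 1 to 3, and 53.1, 51.8 and 58.8 in control 1 to 3. The groups overlapped, and osimertinib 3 was the highest library of all. Ednrb (ENSMUSG00000022122), the endothelin receptor that also clears endothelin from the blood, had 71.0, 54.3, 40.3, 59.9 and 65.5 in osimertinib 1 to 5, 62.8, 64.5 and 55.5 in naphthalene 1 to 3, and 66.7, 68.9 and 71.2 in control 1 to 3. The naphthalene libraries lay just below the control libraries, and osimertinib 3 was lowest of all. Plvap (ENSMUSG00000034845), the protein that forms the diaphragms of endothelial openings and caveolae, had 173, 119.7, 67.3, 159 and 186 in osimertinib 1 to 5, 140.5, 159 and 129 in naphthalene 1 to 3, and 171, 180.5 and 179 in control 1 to 3. The osimertinib libraries spanned both other groups.

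By limma the log2 difference of Plvap was −0.31 (SE 0.29) in naphthalene against control, −0.10 (SE 0.26) in osimertinib against naphthalene and −0.41 (SE 0.26) in osimertinib against control. Those of Ednrb were −0.18 (SE 0.17), −0.09 (SE 0.15) and −0.27 (SE 0.15). Those of Car4 were 0.06 (SE 0.17), 0.10 (SE 0.15) and 0.15 (SE 0.15), the 1 gene of the 10 above control in both treated groups. All 9 had adjusted p of at least 0.864. The last of these comparisons rested largely on osimertinib 3. Without that library Plvap stood at −0.17, Ednrb at −0.14 and Car4 at 0.05 against control. Without naphthalene 3, Ednrb stood at −0.11 and Car4 at −0.017 in naphthalene against control.

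**Figure D2:**
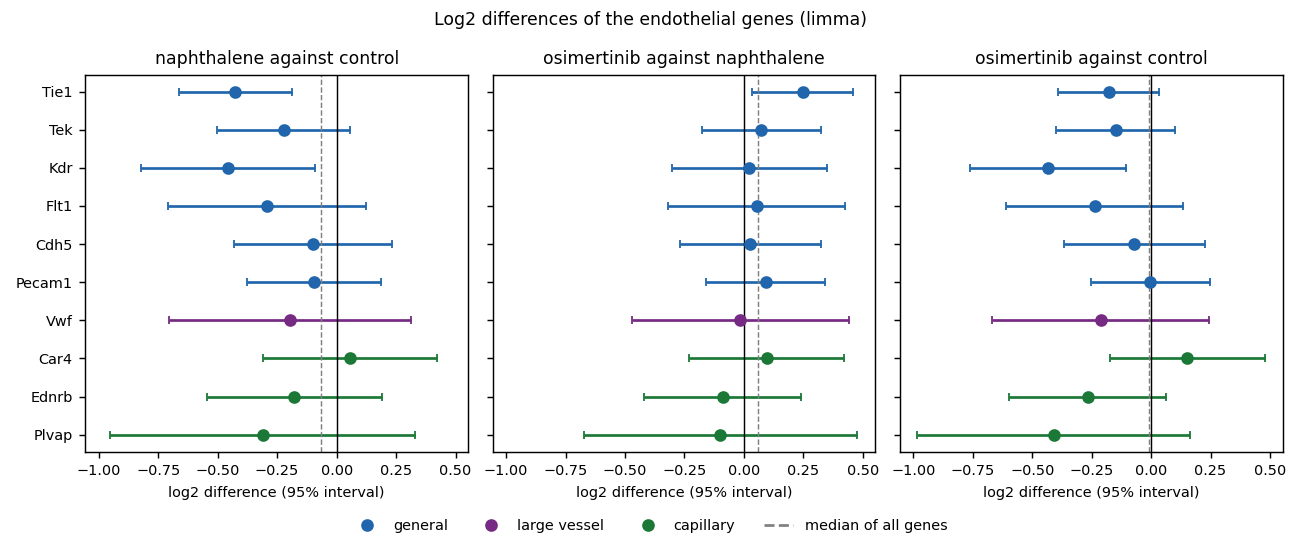
Log2 differences of the 10 endothelial genes (horizontal axis, limma estimate with its 95% interval) in the comparisons of naphthalene with control, osimertinib with naphthalene and osimertinib with control, coloured as general, large vessel or capillary, with the median of all genes dashed. Intervals exclude 0 for Tie1 and Kdr in the first comparison, Tie1 in the second and Kdr in the third, before adjustment, and Car4 lies to the right of 0 in all 3.

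Set side by side, the 6 general genes had a median log2 difference of −0.26 in naphthalene against control, 0.06 in osimertinib against naphthalene and −0.16 in osimertinib against control. The 3 capillary genes had medians of −0.18, −0.09 and −0.27, and Vwf alone −0.20, −0.01 and −0.21. Medians over 3 genes move with 1 of them, and no test was made of the difference between these medians. Without osimertinib 3 the general median was 0.16 against naphthalene and −0.083 against control, and the capillary median 0.035 and −0.14. Without naphthalene 3 the general median was −0.21 and the capillary median −0.11 in naphthalene against control. Leaving out each library in turn, the general median ran from 0.021 to 0.17 in osimertinib against naphthalene. Without osimertinib 2 and osimertinib 3 the capillary median was 0.10 against naphthalene and −0.04 against control.

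Ratios between a pair of endothelial genes of the same library do not depend on how libraries were scaled, apart from the pseudocount of 1. They were compared with exact two-sided permutation tests (12 tests, Benjamini-Hochberg adjusted together). Only the pairs named here and below were compared, and how many other pairs of genes lie apart between groups was not counted. A comparison of 3 against 3 libraries cannot give a p below 0.1, and 5 against 3 cannot go below 0.0179. The log2 ratio of Car4 to Plvap was −1.86, −1.15, 0.27, −1.29 and −1.56 in osimertinib 1 to 5, −1.46, −1.46 and −1.02 in naphthalene 1 to 3, and −1.67, −1.78 and −1.59 in control 1 to 3. It was higher in every naphthalene library than in any control library, by 0.37 in the mean (exact permutation p = 0.1, adjusted 0.257). The osimertinib libraries lay on both sides of control, with a difference of 0.56 (exact permutation p = 0.321, adjusted 0.643) that was 0.22 without osimertinib 3.

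Receptor ratios were also apart between naphthalene and control. The log2 ratio of Kdr to Flt1 was 0.72, 0.39, 0.69, 0.54 and 0.45 in osimertinib 1 to 5, 0.57, 0.60 and 0.59 in naphthalene 1 to 3, and 0.79, 0.80 and 0.67 in control 1 to 3. The naphthalene libraries were all lower than control and close to each other, with a difference of −0.16 (exact permutation p = 0.1, adjusted 0.257). Between osimertinib and control the difference was −0.20 (exact permutation p = 0.107, adjusted 0.257), with overlap. The log2 ratio of Tek to Tie1 was 0.62, 0.88, 0.30, 0.82 and 0.68 in osimertinib 1 to 5, 0.73, 0.68 and 1.08 in naphthalene 1 to 3, and 0.67, 0.61 and 0.61 in control 1 to 3. It was higher in naphthalene than in control without overlap, by 0.20 (exact permutation p = 0.1, adjusted 0.257), a difference of 0.078 when naphthalene 3 was left out.

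The log2 ratio of Vwf to Cdh5, a large vessel gene over a general one, was −0.60, −0.58, −0.86, −0.57 and −0.60 in osimertinib 1 to 5, −0.37, −0.41 and −1.02 in naphthalene 1 to 3, and −0.48, −0.55 and −0.48 in control 1 to 3. All osimertinib libraries were lower than all control libraries, with a mean difference of −0.14 (exact permutation p = 0.0893, adjusted 0.257). Without osimertinib 3, which lay far from the other osimertinib libraries in this ratio, the difference was −0.086, with the smallest exact permutation p that 4 against 3 libraries can give, 0.0286. Naphthalene 1 and 2 lay above control and naphthalene 3 below it, so the group means differed by −0.10 only (exact permutation p = 1). Osimertinib and naphthalene overlapped, with a difference of −0.042 (exact permutation p = 0.857, adjusted 0.935). Without naphthalene 3, the lowest library, that difference was −0.25, with the smallest exact permutation p that 5 against 2 libraries can give, 0.0476. The 2 p-values with a library left out are unadjusted. They were picked from runs that left out each library in turn, because they were smaller than with all libraries. Without osimertinib 2 and osimertinib 3 the difference between osimertinib and naphthalene was 0.011.

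**Figure D3:**
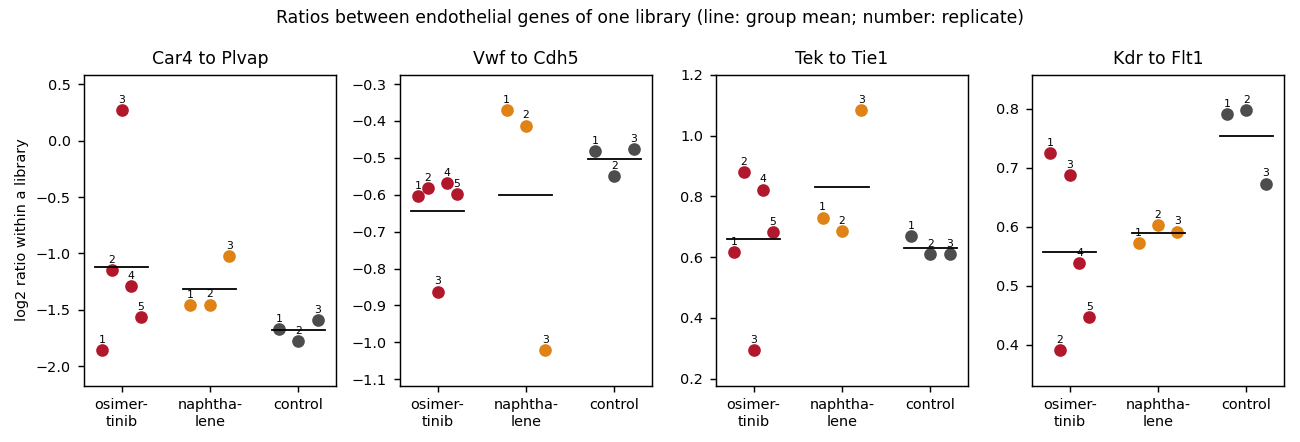
Log2 ratio of Car4 to Plvap, Vwf to Cdh5, Tek to Tie1 and Kdr to Flt1 in each osimertinib, naphthalene and control library (points numbered by replicate, lines at group means, vertical axes differ and do not start at 0). Osimertinib 3 stands far above the others for Car4 to Plvap at 0.27, and naphthalene 3 far below naphthalene 1 and 2 for Vwf to Cdh5 at −1.02.

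Much of the spread came from single libraries. Osimertinib 3 was the lowest of the 11 libraries for 8 of the 10 genes and the highest for Car4, with Tie1 as the exception in mid-range. Relative to the control mean it lay at −1.38 for Plvap, −0.83 for Kdr, −0.82 for Vwf, −0.76 for Flt1 and Ednrb, −0.50 for Tek, −0.46 for Cdh5, −0.29 for Pecam1, −0.17 for Tie1 and 0.57 for Car4 (log2). The members' median against the median of the other libraries was −0.52 in this library, where that of all genes was 0.03. Naphthalene 3 had a pattern of the same signs against control, with −0.72 for Kdr, −0.66 for Vwf, −0.61 for Tie1, −0.56 for Flt1, −0.45 for Plvap, −0.31 for Ednrb and 0.20 for Car4.

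Without osimertinib 3 the median over the 10 genes was −0.08 in osimertinib against control, with 7 genes below 0, and 0.14 in osimertinib against naphthalene, with 9 above 0. Naphthalene 1 and 2 together lay at a median of −0.13 from control, with 9 genes below 0, and naphthalene 3 at −0.38. Within the libraries with a low share of ENSMUSG00000119584, osimertinib 1, 3, 4 and 5 lay at a median of −0.21 from control, and at −0.07 when osimertinib 3 was also left out. Within the libraries with a high share, osimertinib 2 lay at a median of 0.12 from the naphthalene mean, with 6 genes above 0 and 4 below. That comparison has 1 library on 1 side and no test, and naphthalene against control has no value within either kind of library. With the term for a high share, which osimertinib 2 alone can estimate, naphthalene against control stood at −0.31 for Tek, −0.36 for Kdr, −0.41 for Flt1, −0.16 for Pecam1, −0.57 for Vwf, 0.28 for Car4, −0.086 for Ednrb and −0.12 for Plvap. The median over the 10 genes was −0.27 in that fit, where that of all genes was −0.0048.

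**Figure D4:**
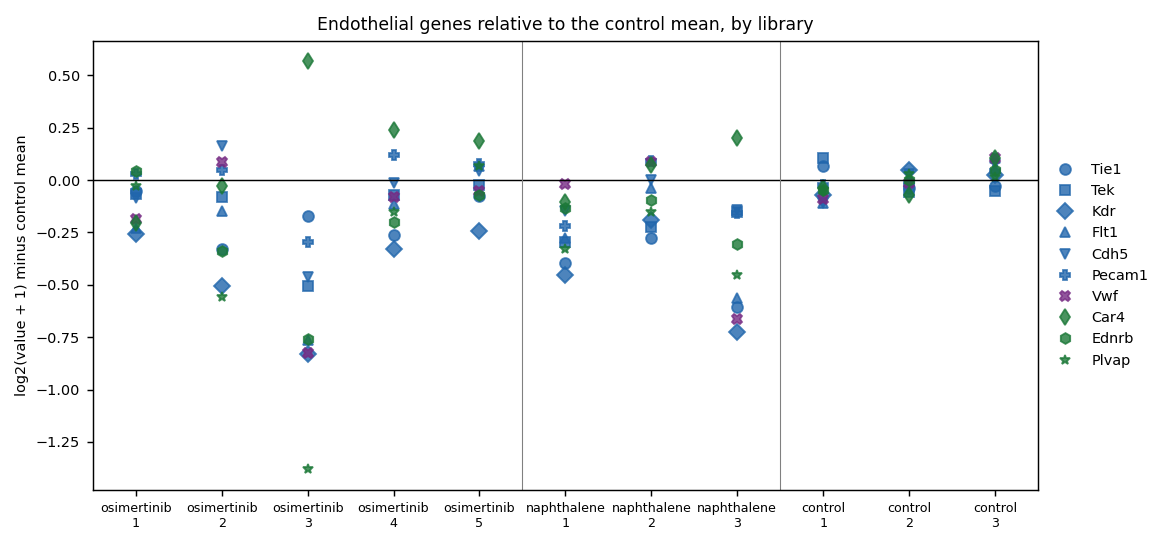
Log2(value + 1) of each endothelial gene minus its mean over the control libraries (vertical axis), by library, osimertinib 1 to 5, then naphthalene 1 to 3, then control 1 to 3. Osimertinib 3 holds the lowest points, with Plvap at −1.38, and the highest, with Car4 at 0.57, and naphthalene 3 is spread in the same direction.

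Other markers also stood apart in osimertinib 3. The summed level of 6 erythroid markers was 10362 TMM CPM there, the highest of 11, and ran from 747 to 10362 in osimertinib, 376 to 2759 in naphthalene and 1927 to 3562 in control libraries. The sum of 6 alveolar type 2 markers, 27280, was also the highest of 11. The sums of pericyte markers (190.0), smooth muscle markers (111.5), fibroblast markers (583.9) and, among lists of endothelium and its pathways, co-receptors (3161), angiogenic ligands (456), endothelin pathway (172) and artery (300.7) were the lowest of 11. The general capillary, vein and other general endothelial lists were the second lowest there. The aerocyte list (1573) and the junction partners (2387) were the second highest, and the endothelial transcription factors (772) ranked 7 of 11 from the lowest. The sum of 6 lymphatic endothelial markers was the highest there, 252.8, with a range of 197 to 252.8 in osimertinib, 191 to 216 in naphthalene and 169.9 to 216 in control libraries. The part of these in the endothelial values was not tested.

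Across the 11 libraries, Ednrb and Plvap went together most closely, with a Pearson correlation of their log2 values of 0.97, and 0.86 over 9 libraries without osimertinib 3 and naphthalene 3. For Flt1 and Vwf the correlation was 0.92, and 0.45 without those 2 libraries, and for Kdr and Flt1 0.89 and 0.68. Car4 ran against the other capillary genes over all libraries, at −0.77 with Ednrb and −0.67 with Plvap, and at −0.23 and 0.18 without those 2. These are descriptions, since the libraries share treatment, depth and the 2 that stand apart.

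The genes most like 3 of the members over the 11 libraries were sought among 11695 genes with a mean of at least 5. For Tie1 they were Armh3 (r = 0.93), Gpc1 (0.92), Sbf1 (0.91), Sdhc (0.90) and Pex5 (0.90), with 0.81 to 0.91 over the 9 libraries without osimertinib 3 and naphthalene 3. For Vwf they were Pphln1 (0.98), Ephb3 (0.98), Tshz2 (0.97), Stim1 (0.97) and Lasp1 (0.97), with 0.71 to 0.90 over the 9. For Car4 they were the histone genes Hist1h1d (0.92), Hist1h3c (0.92) and Hist1h3g (0.91), the proliferation antigen Mki67 (0.91) and B2m (0.91), the light chain of class I antigen-presenting molecules, with 0.76 to 0.89 over the 9.

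The genes that act with these receptors and junctions, given below as means ± SD over 5 osimertinib, 3 naphthalene and 3 control libraries, were followed in 10 lists of 91 genes, 86 of which were tested. None was called in any comparison, with smallest adjusted p of 0.503 (Cyp4b1) in naphthalene against control, 0.191 (Sox17) in osimertinib against naphthalene and 0.710 (Cyp4b1) in osimertinib against control by limma. In naphthalene against control 71 of the 86 lay below 0 (62% of all genes did), with a median of −0.16, and 21 had naphthalene libraries all below control (11.2% of all genes did). In osimertinib against naphthalene 23 lay below 0 with a median of 0.13, beside 39.5% and 0.06 for all genes. In osimertinib against control 56 lay below 0 with a median of −0.06, beside 52% and −0.01.

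Among the ligands, Vegfa, the main ligand of Kdr and Flt1, had 372 ± 63.7 TMM CPM in osimertinib, 399 ± 38.1 in naphthalene and 433 ± 21 in control lungs, Angpt1, the agonist of Tek, 56.9 ± 6.29, 60.3 ± 10.6 and 56.2 ± 5.41, and Dll4, a Notch ligand of sprouting vessels, 43.2 ± 6.73, 42.3 ± 7.19 and 51.1 ± 1.66. The ligand list lay at a median log2 of −0.28 in naphthalene against control, with 8 of 9 below 0, and at −0.10 in osimertinib against control, with 6 of 9 below 0. Among 13 co-receptors and other endothelial receptors all lay below 0 in naphthalene against control, at a median of −0.14, and 12 lay above 0 in osimertinib against naphthalene, at 0.17. In this list Ptprb, the phosphatase that acts on Tek and Cdh5, had 912 ± 143 in osimertinib, 799 ± 104 in naphthalene and 975 ± 76.6 in control lungs, Bmpr2, a BMP receptor, 889 ± 201, 938 ± 101 and 969 ± 80.6, and Calcrl, the receptor for adrenomedullin, 947 ± 135, 826 ± 47.3 and 904 ± 42.6.

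In the endothelin pathway, which acts on Ednrb, 3 of 4 genes lay below 0 in each comparison. Ece1, the enzyme that makes active endothelin, had 201 ± 53.8 TMM CPM in osimertinib, 204 ± 33 in naphthalene and 234 ± 21.2 in control lungs, the other receptor Ednra 42.6 ± 5.57, 45.7 ± 2.81 and 49.6 ± 4.39, and the ligand Edn1 15.025 ± 1.39, 9.75 ± 5.54 and 12.9 ± 2.39. The partners of Cdh5 and other junction genes had medians of −0.07, 0.07 and −0.04 in the 3 comparisons. The catenin Ctnnb1 had 599.7 ± 72.7 in osimertinib, 522 ± 44.9 in naphthalene and 506 ± 28.2 in control lungs, the scaffold protein Tjp1 381 ± 32.7, 368 ± 20.2 and 379.8 ± 8.19, and the catenin Ctnnd1 328 ± 22, 311 ± 21.3 and 342 ± 14.9. The tight junction protein Cldn5, chosen after its values were seen, had 136 ± 26.2 in osimertinib, 97.7 ± 15.5 in naphthalene and 141 ± 11.8 in control lungs. Its log2 difference was −0.54 (SE 0.17, limma adjusted p = 0.540) in naphthalene against control, with no overlap, and 0.47 (SE 0.16, adjusted p = 0.329) in osimertinib against naphthalene, with overlap. The adhesion molecules Icam2 and Esam, chosen in the same way, lay at −0.39 (adjusted p = 0.744) and −0.25 (adjusted p = 0.758) in naphthalene against control by limma. Each had naphthalene libraries all below control, as 11.2% of all genes had. Of the 12 junction partners tested, 9 lay below 0 in that comparison and 3 above (Ctnnb1 0.04, Ocln 0.04 and F11r 0.02).

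The endothelial transcription factors had a median of −0.24 in naphthalene against control, with 8 of 11 below 0. Ets1 had 187 ± 22 TMM CPM in osimertinib, 197 ± 13.5 in naphthalene and 233 ± 17.3 in control lungs, Foxf1 103 ± 28.4, 98.4 ± 20.8 and 98.8 ± 12, and the flow-induced factor Klf2 126 ± 60.1, 72.8 ± 14.5 and 123 ± 28.5. Other general endothelial genes lay at −0.22, 0.20 and 0.06 in the 3 comparisons, and include Epas1, a hypoxia-inducible factor, at 1606 ± 243 in osimertinib, 1647 ± 277 in naphthalene and 1914.5 ± 252 in control lungs, Thbd, the thrombin receptor thrombomodulin, at 377 ± 82.9, 334 ± 63.9 and 409.6 ± 56, and the lectin-like receptor Cd93 at 351 ± 81.8, 289 ± 56.8 and 365 ± 61.6.

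Lists for single vessel types set the capillary genes in context. The aerocyte list had the lowest median of the 10 lists in naphthalene against control, −0.36 with 7 of 8 below 0, and −0.17 in osimertinib against control. In it the membrane protein Emp2 had 701 ± 82.3 TMM CPM in osimertinib, 728 ± 106 in naphthalene and 707 ± 11.6 in control lungs, Cyp4b1, a cytochrome P450, 241 ± 33.1, 228 ± 10.1 and 309.8 ± 28.3, and the secreted protein Igfbp7 218 ± 53.5, 160.5 ± 24.2 and 181 ± 15.6. The aerocyte markers Car4 and Ednrb are not in that list. Its summed level is weighted towards Emp2, the gene of highest level in it. The RNA came from whole lung tissue. The part of other cell types, club cells included, in Cyp4b1, Emp2 and the other genes of the 10 lists was not tested. The general capillary list lay at −0.08 and 0.13 in the same comparisons, with the semaphorin Sema3c at 359.6 ± 66, 309.7 ± 24.2 and 275 ± 34.8, the adhesion molecule Cadm1 at 139 ± 34.3, 145 ± 10.4 and 153 ± 3 and lipoprotein lipase, Lpl, at 138 ± 21.8, 109.8 ± 5.89 and 118 ± 21.9 in osimertinib, naphthalene and control lungs. The artery list lay at −0.09 and −0.07, with the ephrin ligand Efnb2 at 128 ± 35.2, 119.9 ± 26.4 and 149 ± 22.5, the chemokine Cxcl12 at 128 ± 28.8, 122 ± 14 and 132 ± 22.5 and Fbln5 at 71.5 ± 7.97, 62.3 ± 6.7 and 66.1 ± 3.11. The vein list lay at −0.16 and −0.03, with Car8 at 93.0 ± 15.8, 78.3 ± 14.6 and 78.6 ± 4.33, the ephrin receptor Ephb4 at 79.4 ± 8.71, 65.4 ± 7.77 and 80.6 ± 7.87 and the vein transcription factor Nr2f2 at 57.4 ± 13.2, 75.4 ± 14 and 66.7 ± 7.94.

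**Figure D5:**
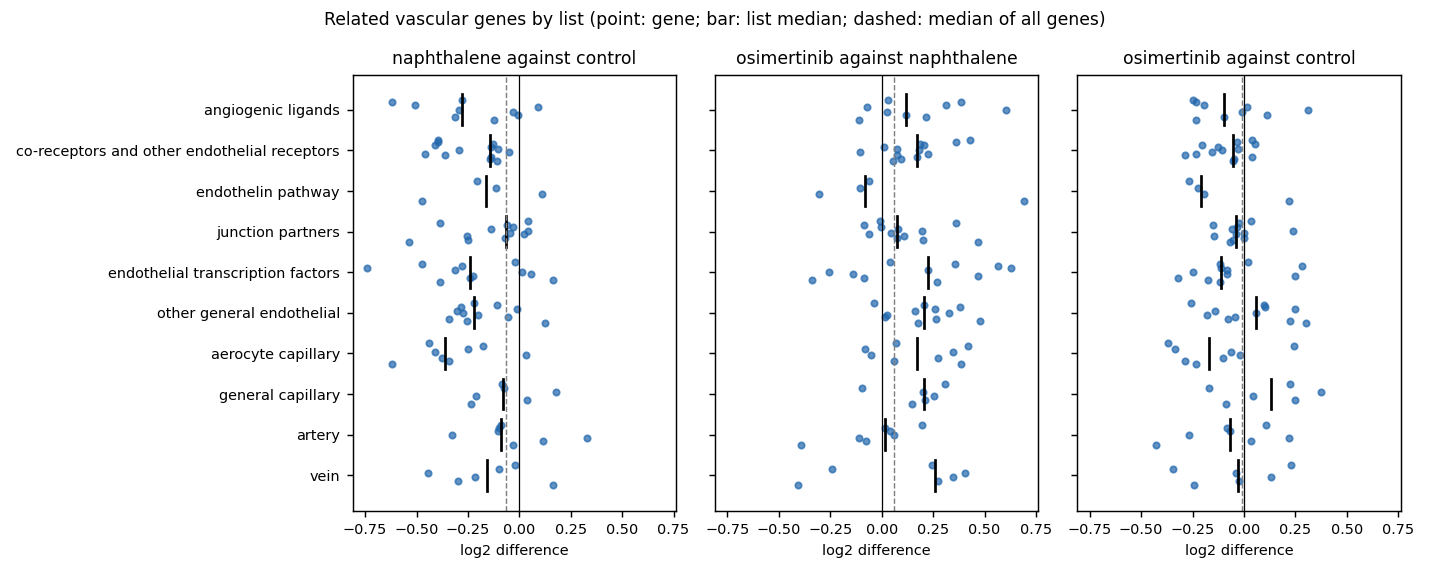
Log2 difference (horizontal axis) of each tested gene of the 10 related lists in the comparisons of naphthalene with control, osimertinib with naphthalene and osimertinib with control, with a bar at each list's median and a dashed line at the median of all genes. In naphthalene against control every list median lies below 0, and in osimertinib against naphthalene every one except that of the endothelin pathway lies above 0.

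None of the markers of other cell types was called in any comparison either. The summed level of the 5 club cell markers was 2779 to 9273 TMM CPM in osimertinib, 5232 to 9719 in naphthalene and 12085 to 15039 in control libraries. Alveolar type 2 markers summed to 13727 to 27280 in osimertinib, 12569 to 18830 in naphthalene and 11576 to 13053 in control libraries, so the lung epithelium that defines the labelled tissue was present in all. Medians in naphthalene against control and in osimertinib against control were 0.16 and 0.56 for lymphatic endothelium, −0.48 and −0.13 for megakaryocytes and platelets, −0.18 and −0.04 for pericytes, −0.42 and −0.42 for smooth muscle, 0.15 and 0.02 for leukocytes and −1.04 and −0.24 for erythroid cells. They were 0.00050 and −0.11 for alveolar type 1 cells, 0.32 and 0.50 for alveolar type 2 cells, −0.67 and −0.89 for club cells, −0.05 and 0.28 for fibroblasts, −0.21 and 0.14 for cardiac muscle and 0.22 and −0.23 for mesothelium. Smooth muscle sums were 111.5 to 159 in osimertinib, 114 to 174 in naphthalene and 134 to 248 in control libraries. The part of these cell types in the endothelial values was not tested.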

How the data were processed

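Total RNA from lung was depleted of ribosomal RNA and made into directional libraries, per the labels' protocols. The authors deposited 1 table of normalised signal, CPM with library sizes scaled by TMM. Tools listed in the submitters' processing notes are Bowtie2, RSEM 1.3.0, edgeR and Trimmomatic 0.38, with build GRCm39, and the steps they served are not given in the sources used here. Of the values, 100% were whole multiples of the value of 1 read within 0.01, so whole reads were recovered. Per library 5045361 to 13009975 gene reads were recovered, and no member rests on fewer than 121 reads.

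Genes with a mean of at least 1 over the 11 libraries (16225) entered the test, as log2(value + 1), by limma 3.58.1 in R 4.3.3 (mean-variance trend, 3 groups in 1 fit, 8 residual degrees of freedom, Benjamini-Hochberg adjustment over all genes, threshold 0.05). The script was tested on simulated data. On this scale the change of low genes is understated. Names and exon lengths came from GENCODE M21 (GRCm38), which named 23123 of 23255 IDs, and promoters from RefSeq (GRCm38.p6). Within groups no library was a duplicate of another, since chi-square over its degrees of freedom was 3.44 or more. Pairs of libraries from different groups were not checked. Plvap and Cdh5 overlap genes on the opposite strand outside their exons.

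The members, gene lists, comparisons and alternatives were chosen with earlier results of these data known. Named genes were the 10 members, the 3 genes of highest mean in each list of related genes when none was called, and the 5 genes most correlated with Tie1, Vwf and Car4. Cyp4b1 and Sox17 stand beside smallest p-values and were chosen for them after values were seen. Cldn5, Icam2 and Esam were also chosen after values were seen. Tried as alternatives were other pseudocounts (0.1, 5), other filters (none, mean of at least 5), median-ratio size factors, totals without ENSMUSG00000119584, only the groups compared, array weights, a term for a read share of that gene over 10%, the replicate number as a block, 2 pairs of libraries left out, each library left out in turn, edgeR 4.0.16 and DESeq2 1.42.0. Adjusted p was missing from DESeq2 for 5104, 1961 and 2276 genes in the 3 comparisons. Same-numbered osimertinib and naphthalene libraries correlated in their deviations from group means at 0.122, 0.159 and 0.523. The last value joins osimertinib 3 and naphthalene 3. Same-numbered naphthalene and control libraries correlated at −0.064, 0.203 and −0.093. No main test paired libraries, and the replicate number entered only as the block among the alternatives. Any pairing would rest on the values alone. Osimertinib and naphthalene libraries of different numbers correlated at −0.400 (osimertinib 4 with naphthalene 3) to 0.270 (osimertinib 4 with naphthalene 2). Osimertinib 3 correlated with naphthalene 1 and 2 at −0.332 and −0.323, below its 0.523 with naphthalene 3. Whether a shared number marks a pair was not tested. The intervals given for log2 differences come from limma and rest on the spread between libraries. Floors of read counts cover counting error only.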

Additional observations from a re-analysis of the deposited data

Results flagged for a closer look

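In 3 of the 14 sets of osimertinib values tested (10 genes and 4 ratios), 1 library lay far from the other 4, by the gap to its nearest neighbour as a share of the whole range, and each time it was osimertinib 3. Tek was 158.3 TMM CPM in osimertinib 3, against 212.8 to 221.3 in the others, a gap of 0.866 of the range. Pecam1 was 276.4 there, against 346.1 to 368.4, a gap of 0.757. The log2 ratio of Vwf to Cdh5 was −0.86 there, against −0.60 to −0.57, a gap of 0.878. The critical value for 5 libraries is 0.71, and chance flags about 1 in 20 groups. The 14 sets share libraries and are not independent.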

How the results depend on the processing

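None of the 750 values of single endothelial genes under the 25 alternatives was called; 700 kept their direction and 50 reversed. The lowest adjusted p was 0.0512, for Kdr in osimertinib against control with array weights, where over all alternatives it ran up to 1.

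The number of genes called over all was 0 in naphthalene against control, 0 in osimertinib against naphthalene and 1 in osimertinib against control. It was 21 and 1 in the first 2 comparisons with only the 2 groups compared in the fit. In the 3 comparisons it was 5, 4 and 149 with array weights, 2, 2 and 2 with the read-share term, 38, 47 and 2 without osimertinib 2 and osimertinib 3, 202, 189 and 3 without naphthalene 3 and osimertinib 3, and 12, 33 and 78 with DESeq2. With totals without ENSMUSG00000119584 it was 7 in osimertinib against naphthalene and 0 in osimertinib against control. Leaving out each library in turn gave 0 to 12, 0 to 11 and 0 to 2. The cause of these changes was not tested.

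With totals without that gene the median of all genes moved to −0.48, 0.29 and −0.20, and the members' median to −0.66, 0.29 and −0.40 (general −0.71, 0.31 and −0.37, capillary −0.63, 0.16 and −0.47). Car4 turned to −0.39 in naphthalene against control and −0.052 in osimertinib against control, and in osimertinib against naphthalene Vwf turned to 0.23, Ednrb to 0.16 and Plvap to 0.15. Without osimertinib 2 and osimertinib 3 the capillary median was 0.10 against naphthalene and −0.037 against control.

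In osimertinib against naphthalene, where all members but Tie1 lay near 0, signs turned most. Kdr was −0.051 with the read-share term, −0.011 without naphthalene 3 and osimertinib 3, −0.027 with DESeq2, −0.015 with median-ratio factors and −0.075 with the replicate block. The block also put Flt1 at −0.087 and Cdh5 at −0.030, and Cdh5 was −0.0042 with DESeq2 and −0.011 with median-ratio factors. Vwf was 0.28 with the read-share term and 0.091 without osimertinib 2 and osimertinib 3, and Car4 −0.083 with the read-share term. Ednrb was 0.017 with array weights and 0.10 without osimertinib 2 and osimertinib 3, and Plvap 0.15, 0.27 and, without naphthalene 3 and osimertinib 3, 0.073. The ratio of Car4 to Plvap was −0.26 and that of Vwf to Cdh5 0.011 without osimertinib 2 and osimertinib 3.

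In osimertinib against control Pecam1 was 0.065 with array weights, 0.076 without osimertinib 2 and osimertinib 3, 0.070 without naphthalene 3 and osimertinib 3, 0.020 with DESeq2, 0.016 with median-ratio factors and 0.0041 with edgeR, and Cdh5 0.027 without naphthalene 3 and osimertinib 3. In naphthalene against control Vwf was 0.035 and Car4 −0.017 without naphthalene 3 and osimertinib 3. With the replicate block 0 genes were called in osimertinib against control, the ratio of Tek to Tie1 there was −0.032 and that of Kdr to Flt1 in osimertinib against naphthalene 0.012. The block changed no call of an endothelial gene.

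Leaving out each library in turn gave ranges that crossed 0. In naphthalene against control they were −0.34 to 0.035 for Vwf, −0.017 to 0.14 for Car4 and −0.21 to 0.11 for the ratio of Vwf to Cdh5. In osimertinib against naphthalene they were −0.11 to 0.16 for Kdr, −0.081 to 0.19 for Flt1, −0.031 to 0.13 for Cdh5, −0.25 to 0.14 for Vwf, −0.0079 to 0.19 for Car4, −0.17 to 0.035 for Ednrb, −0.22 to 0.14 for Plvap, −0.15 to 0.38 for Car4 to Plvap, −0.25 to 0.073 for Vwf to Cdh5 and −0.073 to 0.010 for Kdr to Flt1. In osimertinib against control they were −0.13 to 0.027 for Cdh5, −0.034 to 0.070 for Pecam1, −0.025 to 0.12 for Tek to Tie1 and, without crossing 0, −0.16 to −0.086 for Vwf to Cdh5.

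Depth limits the naphthalene libraries and osimertinib 2, whose lowest member rests on 121 reads. In naphthalene against control the exact permutation tests of ratios cannot go below 0.1.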
